A study of Homo sapiens with 6 samples.

Results

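The 10 genes described here are the hypoxia-inducible transcription factors and genes around them, HIF1A, EPAS1, ARNT, EGLN1, EGLN3, VEGFA, BHLHE40, CA9, ADM and BNIP3, chosen by symbol. All 10 were found once among the 58440 gene identifiers of the count table, and 9 of them were among the 18380 genes with enough reads to test, CA9 being the exception. RNA was sequenced from K562, an established human chronic myeloid leukaemia line with erythroid features that carries the BCR-ABL1 fusion. The comparison is between 3 libraries of K562 cells over-expressing IRAIN, a long noncoding RNA antisense at the IGF1R locus, and 3 control libraries. The first are called IRAIN libraries below. The controls are wild type in the labels but vector in the column names, and the presence of an empty vector was not settled here. The sources used here give no passage, clone, oxygen level or time after introduction of IRAIN, and none describes the libraries as separate cultures. The p-values therefore measure the spread between these libraries only.

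Cells sense oxygen through the hypoxia-inducible factors (HIF). Each is a pair of an alpha subunit, encoded by HIF1A or EPAS1 (HIF-2 alpha), and the shared partner ARNT. With oxygen, prolyl hydroxylases such as those of EGLN1 and EGLN3 mark the alpha subunit, the VHL ubiquitin ligase binds it, and it is degraded. Without oxygen the pair binds DNA at a short core and activates genes for vessel growth, pH control, mitochondrial turnover and glucose use. Most of this control acts on protein stability, which RNA counts do not measure. EPAS1 is known as the main regulator of erythropoietin in the kidney and of iron uptake genes in the gut.

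The core that HIF binds is ACGTG or GCGTG on either strand. It was searched in the 250 bases before each RefSeq gene start (GRCh38.p14), where the symbols of 9 of the 10 genes matched an entry, HIF1A with 2 starts, and VEGFA did not. Of these 9 genes 7 held at least 1 core, and 43.2% of all 35116 such windows did, so the letters are common. ARNT and EGLN3 held none. The windows of BHLHE40 and EPAS1 are printed because both genes were higher in the IRAIN libraries. Those of CA9 and BNIP3 are printed because both are well-known HIF targets, of which CA9 was not tested and BNIP3 was not called. Capitals mark the cores, and where neighbouring cores touch or overlap their capitals run together. The windows are BHLHE40 at chr3:4979187-4979436 on the plus strand, EPAS1 at chr2:46297157-46297406 on the plus strand, CA9 at chr9:35673678-35673927 on the plus strand and BNIP3 at chr10:131981924-131982173 on the minus strand, each 5′ to 3′ along its gene.
BHLHE40: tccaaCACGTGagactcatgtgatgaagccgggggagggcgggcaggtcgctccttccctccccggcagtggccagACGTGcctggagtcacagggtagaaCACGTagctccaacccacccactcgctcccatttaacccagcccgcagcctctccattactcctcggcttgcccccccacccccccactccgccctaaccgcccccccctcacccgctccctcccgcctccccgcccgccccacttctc
EPAS1: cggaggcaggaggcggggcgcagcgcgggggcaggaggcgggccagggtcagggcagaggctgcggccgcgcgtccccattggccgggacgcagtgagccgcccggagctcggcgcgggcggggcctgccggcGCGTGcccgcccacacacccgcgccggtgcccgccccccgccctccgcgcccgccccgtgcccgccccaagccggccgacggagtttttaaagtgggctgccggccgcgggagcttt
CA9: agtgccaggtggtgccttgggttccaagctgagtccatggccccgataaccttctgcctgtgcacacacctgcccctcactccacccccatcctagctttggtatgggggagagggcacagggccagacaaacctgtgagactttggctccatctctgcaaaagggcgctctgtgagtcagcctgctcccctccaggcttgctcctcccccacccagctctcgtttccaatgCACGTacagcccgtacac
BNIP3: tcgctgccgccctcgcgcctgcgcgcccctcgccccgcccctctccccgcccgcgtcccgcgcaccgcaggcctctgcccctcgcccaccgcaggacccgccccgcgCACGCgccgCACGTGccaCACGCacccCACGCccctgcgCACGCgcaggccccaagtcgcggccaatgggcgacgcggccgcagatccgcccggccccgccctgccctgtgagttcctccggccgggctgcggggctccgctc
BHLHE40 held 4 matches, all of ACGTG. One pair of these is the palindrome read on both strands, 245 bases before the start. BNIP3 held 6 matches packed between 143 and 104 bases before its start, a pair of them again the palindrome read on both strands, at 134 bases. EPAS1 held 1 match of GCGTG 117 bases before its start. CA9 held 1 match that begins 18 bases before the start, on the opposite strand. BNIP3, with the most matches, was not called, while BHLHE40, with 4, was called higher, as was ARNT, with none. VEGFA had no window to search. A relation between the number of matches and the response was not tested. A match describes letters in this window and says nothing of binding.

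**Figure D1:**
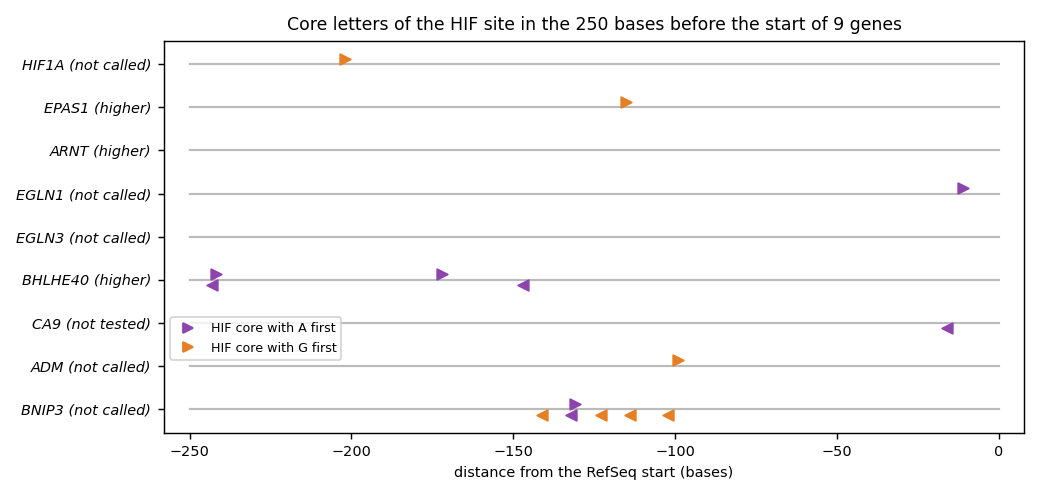
Positions of the core letters in the 250 bases before the start of 9 genes (x axis, bases from the RefSeq start). Triangles point along the strand that carries the core, purple for ACGTG and orange for GCGTG, and the bracket gives the call in the RNA comparison. BNIP3 shows a cluster of 6 matches and ARNT and EGLN3 show none; for HIF1A, which has 2 starts, the only match lies before the one drawn.

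Library totals ranged from 11558983 to 13303139 counts in the IRAIN libraries and from 11893872 to 12237415 in the controls. At this depth 1 CPM, the unit of counts scaled to library size, stands for 11.4 to 13.2 reads. IRAIN itself had 97, 94 and 106 counts in the IRAIN libraries and 0, 0 and 1 in the controls, as the labels say. The summed level of 10 markers of K562 identity was 2279 to 2311 CPM in the IRAIN libraries and 2427 to 2478 CPM in the controls. Of 13 markers of other cell types, 3 (MS4A1, CDH5 and VWF) had no read in any library. The sum of all 13, most of it the keratin KRT8, was 524 to 560 CPM in the IRAIN libraries and 490 to 514 CPM in the controls. Mitochondrial genes took 2.95% to 3.33% of counts in the IRAIN libraries and 2.46% to 2.78% in the controls. The part of these shifts in the results below was not tested. In bulk RNA, fewer cells with a transcript and less of it per cell cannot be told apart.

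With IRAIN over-expression, 4 of the 9 tested hypoxia genes rose and none fell, by edgeR's quasi-likelihood test at an adjusted p under 0.05. The risers were VEGFA, BHLHE40, EPAS1 and ARNT. VEGFA, a secreted vessel growth factor, was 1.6-fold higher and BHLHE40, a transcriptional repressor, 1.5-fold higher, while EPAS1 was 1.22-fold and ARNT 1.09-fold higher. HIF1A, both hydroxylase genes, ADM and BNIP3 did not pass the test. At an adjusted p DESeq2 called 3 of them higher, and over all genes 2465 higher and 2348 lower. At an unadjusted p under 0.05 edgeR, DESeq2 and limma-voom each gave 4 higher and 0 lower. The share over all tested genes at an unadjusted p was not computed, so these counts have no background. By edgeR at an adjusted p 39.3% of all tested genes were called, 20.3% higher and 18.9% lower. The share of hypoxia genes called was near that background. The libraries of the groups did not overlap for the same 4 genes among the 9, against 47.5% of all tested genes. The median log2 fold change of the 9 was 0.03 (-0.001 over all tested genes), with a range of -0.27 to 0.68. With GC and length offsets the same count of 4 rose and 0 fell, where 40.3% of all tested genes were called, 19.6% higher and 20.7% lower.

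**Figure D2:**
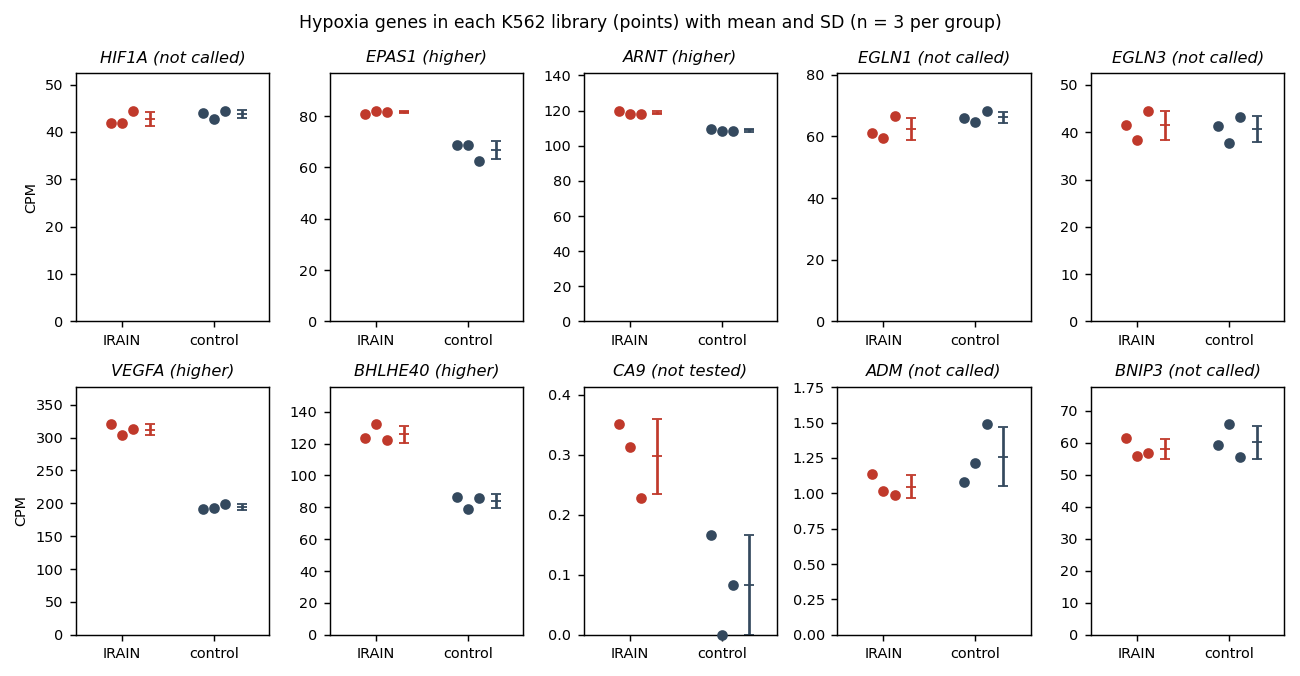
CPM (y axis, from 0, scaled per gene) in each IRAIN library (red, left) and each control library (blue, right), with mean and SD (n = 3 per group). The groups separate for VEGFA, BHLHE40, EPAS1 and ARNT and overlap for HIF1A, EGLN1, EGLN3, ADM and BNIP3, while CA9 stays below 0.4 CPM.

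Among the factors, EPAS1 (ENSG00000116016.13, chromosome 2, 46293667 to 46386703, plus strand) stood at 80.9, 81.9 and 81.8 CPM in the IRAIN libraries and at 68.7, 68.7 and 62.6 CPM in the controls. The lowest IRAIN library lay above the highest control. It rose by 0.29 ± 0.047 on the log2 scale (SE; edgeR adjusted p = 6.1e-07). ARNT (ENSG00000143437.20, chromosome 1, 150809705 to 150876768, minus strand), the partner of both alpha subunits, stood at 119.7, 118.4 and 118.3 CPM in the IRAIN libraries and at 109.4, 108.5 and 108.2 CPM in the controls. The difference was small, but the libraries of each group lay within 2 CPM of each other. It rose by 0.13 ± 0.039 on the log2 scale (SE; edgeR adjusted p = 0.0057) but missed the threshold by DESeq2 (adjusted p = 0.056).

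HIF1A (ENSG00000100644.16, chromosome 14, 61695513 to 61748259, plus strand) stood at 42.0, 41.9 and 44.4 CPM in the IRAIN libraries and at 44.1, 42.8 and 44.4 CPM in the controls. The groups overlapped, and the log2 fold change of -0.03 had a 95% interval of -0.15 to 0.09 (edgeR adjusted p = 0.71). Per kilobase of annotated exon, the ratio of EPAS1 to HIF1A within a library was 1.36, 1.38 and 1.30 in the IRAIN libraries and 1.10, 1.13 and 0.996 in the controls. The counts behind it ignore strand. In the 1 library with strand counts, described below, 26.5% of EPAS1 reads and 6.9% of HIF1A reads lay opposite to the gene. Whether EPAS1 exceeds HIF1A on its own strand is therefore uncertain. This ratio did not overlap between the groups, with means of 1.35 ± 0.042 in the IRAIN libraries and 1.08 ± 0.071 in the controls (SD, n = 3 each; exact two-sided permutation p = 0.1, the smallest that 20 splits allow). The remaining alpha subunit gene HIF3A and the second partner gene ARNT2 had too few reads to test.

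The hydroxylase genes, which HIF is known to induce in a feedback loop, did not pass the test. EGLN1 (ENSG00000135766.8, chromosome 1, 231363751 to 231425044, minus strand), the main oxygen sensor of the family, stood at 61.0, 59.5 and 66.4 CPM in the IRAIN libraries and at 65.8, 64.5 and 68.2 CPM in the controls. Its log2 fold change was -0.09, with a 95% interval of -0.19 to 0.02 (edgeR adjusted p = 0.19). EGLN3 (ENSG00000129521.13, chromosome 14, 33924231 to 34462774, minus strand), strongly hypoxia-inducible in many cells, stood at 41.6, 38.4 and 44.5 CPM in the IRAIN libraries and at 41.2, 37.8 and 43.1 CPM in the controls. The libraries of either group covered nearly the same span, and the log2 fold change was 0.03 with a 95% interval of -0.10 to 0.16 (edgeR adjusted p = 0.77). A change of 1.5-fold, 0.58 on this scale, lies outside the intervals of HIF1A, EGLN1, EGLN3 and BNIP3.

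The target genes were divided. VEGFA (ENSG00000112715.21, chromosome 6, 43770184 to 43786487, plus strand) stood at 320.0, 303.2 and 312.7 CPM in the IRAIN libraries and at 191, 193 and 199 CPM in the controls. These groups lay farther apart than those of any other of the 10 genes in CPM. It rose by 0.68 ± 0.032 on the log2 scale (SE; edgeR adjusted p = 3.1e-27), and 10.01% of all tested genes differed by more in either direction. BHLHE40 (ENSG00000134107.4, chromosome 3, 4979116 to 4985323, plus strand), which represses circadian and other promoters, stood at 123, 132 and 122 CPM in the IRAIN libraries and at 86.4, 78.7 and 86.1 CPM in the controls. The groups did not overlap, and the rise was 0.59 ± 0.043 on the log2 scale (SE; edgeR adjusted p = 2.4e-18), exceeded in size by 12.98% of tested genes. In edgeR's test against a 1.5-fold change, which 3.75% of all tested genes passed (2.43% higher, 1.32% lower), VEGFA passed (adjusted p = 0.012) and none of the other 8 did. With GC and length offsets the log2 fold change of VEGFA was 0.57, under the 0.58 of a 1.5-fold change.

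BNIP3 (ENSG00000176171.11, chromosome 10, 131966455 to 131982013, minus strand), a mitophagy receptor and one of the classical HIF targets, stood at 61.7, 55.9 and 56.9 CPM in the IRAIN libraries and at 59.3, 65.8 and 55.5 CPM in the controls. The groups overlapped, and its log2 fold change was -0.05 with a 95% interval of -0.16 to 0.06 (edgeR adjusted p = 0.48). ADM (ENSG00000148926.9, chromosome 11, 10304680 to 10307397, plus strand), the vasodilator peptide adrenomedullin, had 13, 13 and 13 counts in the IRAIN libraries and 13, 15 and 18 in the controls. At that depth the 95% interval of its log2 fold change ran from -0.95 to 0.41, wide enough that a change of moderate size could be missed (edgeR adjusted p = 0.57). A 1.5-fold fall lies inside this interval and a 1.5-fold rise outside it. CA9 (ENSG00000107159.12, chromosome 9, 35673856 to 35681159, plus strand), the carbonic anhydrase often used as a hypoxia marker, had 4, 4 and 3 counts in the IRAIN libraries and 2, 0 and 1 in the controls. Taken over each group, the level was 3.58-fold higher, with an exact 95% interval of 0.946 to 20 for counting error only, and no test was made. Both CA9 and ADM were near the detection limit in all 6 libraries.

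**Figure D3:**
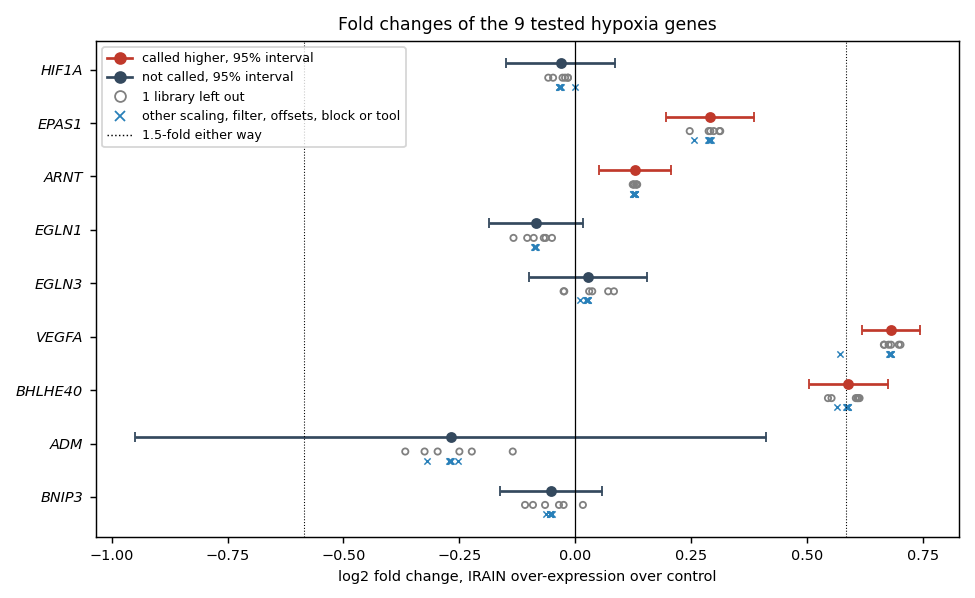
Log2 fold change (x axis, over-expression over control) of the 9 tested hypoxia genes with 95% intervals (filled circles), with 1 library left out (open circles) and under other scaling, filtering, offsets, a block or tools (crosses). The intervals of VEGFA, BHLHE40, EPAS1 and ARNT lie above 0, that of ADM is the widest, and the cross of VEGFA at 0.57 is the value with GC and length offsets.

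To compare levels between genes, CPM were divided by the kilobases of annotated exon. BHLHE40 was the highest in both groups, at 32.8 ± 1.4 in the IRAIN libraries and 21.8 ± 1.13 in the controls (SD, n = 3 each). VEGFA, at 21.6 ± 0.58 in the IRAIN libraries and 13.5 ± 0.30 in the controls, changed places with ARNT, at 18.2 ± 0.12 in the IRAIN libraries and 16.7 ± 0.099 in the controls. Below them, BNIP3 (10.9 ± 0.58) and EPAS1 (11.2 ± 0.073) did not differ beyond their spread in the IRAIN libraries, whereas in the controls EPAS1 (9.13 ± 0.48) and EGLN1 (9.11 ± 0.25) did not. BNIP3 stood at 11.3 ± 0.98 in the controls, and EGLN1 at 8.58 ± 0.50 in the IRAIN libraries, within the spread of HIF1A there. HIF1A followed at 8.30 ± 0.28 in the IRAIN libraries and 8.49 ± 0.16 in the controls, then EGLN3 at 5.64 ± 0.41 in the IRAIN libraries and 5.53 ± 0.37 in the controls. ADM and CA9 came last, both under 0.5. The order depends on the lengths used: by the longest transcript, EGLN3 moved in the controls to the fifth place, since its exons add up to 7359 bases and its longest transcript has 2849.

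**Figure D4:**
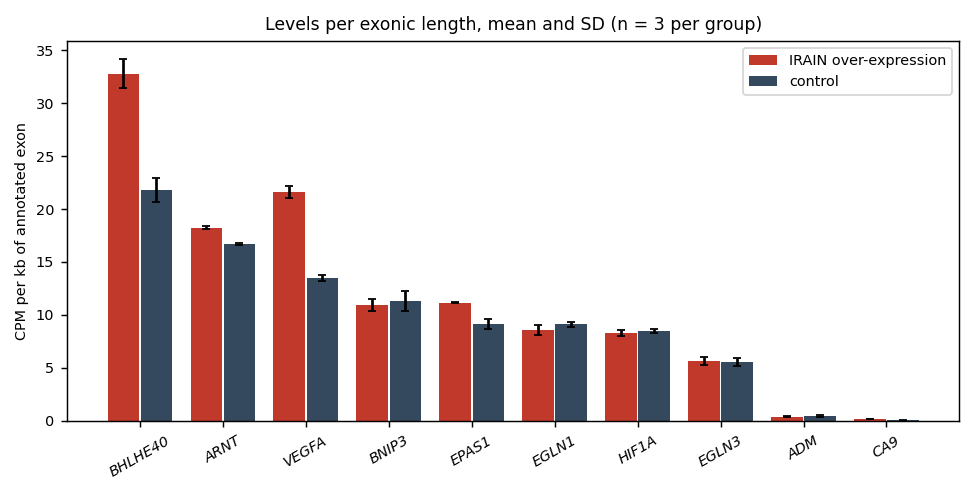
CPM per kilobase of annotated exon (y axis, from 0) for the 10 genes in IRAIN libraries (red, left bar) and controls (blue, right bar), mean and SD (n = 3 per group). BHLHE40 is highest in both groups, VEGFA lies above ARNT in the IRAIN libraries and below it in the controls, and ADM and CA9 are close to 0.

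The deposited counts ignore strand, so reads from a gene and from an opposite transcript fall together. A second deposited table holds strand counts of 1 unnamed library, which matches IRAIN replicate 2 at all 58440 identifiers when strand is ignored. There 15.15% of strand-assigned counts lay on the strand opposite to the gene's. The share was 12.6% for VEGFA (544 of its reads), 14.4% for BHLHE40, 6.8% for ARNT and 6.9% for HIF1A, all below that of the library. EPAS1 stood higher, with 277 opposite and 769 sense reads (26.5%), although no annotated exon overlaps its own. The other genes lay between 9.4% for EGLN3 and 30.8% for ADM, the last from 4 opposite and 9 sense reads. Whether the opposite reads at EPAS1 differed between the groups was not tested, since only 1 library has strand counts. CA9 shares 38.5% of its exonic bases with ARHGEF39 on the other strand, and 8 reads were counted on its own strand there against 4 with strand ignored, so its deposited count is uncertain. Of the other 9 genes, HIF1A shared 5.1% of its exonic bases with another gene and the rest at most 1.3%.

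Around these 10 genes, 56 others of the pathway were taken as a list, and 48 had enough reads to test. Of these, 15 rose and 9 fell (39.3% of all tested genes were called), and the libraries of the groups did not overlap for 27 (47.5% of all tested genes). The median log2 fold change was 0.07. In edgeR's test against a 1.5-fold change 2 of the 48 passed, TF and ANGPTL4, both higher. Over all tested genes 3.75% passed it, 2.43% higher and 1.32% lower, so the share among these genes was near that background. Log2 fold changes below carry their SE and an adjusted p under 0.05 in edgeR's test unless stated.

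Of the genes for oxygen sensing and for degradation, of HIF or of its hydroxylases, 2 of 8 rose and none fell in edgeR. Over all tested genes 20.3% rose and 18.9% fell at the same adjusted p under 0.05. The counts were the same at an unadjusted p under 0.05, for which no share over all tested genes was computed. VHL, the substrate receptor that binds hydroxylated HIF, stood at 201 ± 3.5 CPM in the IRAIN libraries and 167 ± 0.95 CPM in the controls (SD, n = 3 each), a log2 fold change of 0.27 ± 0.033. SIAH2, a ubiquitin ligase that marks the hydroxylases and not HIF for degradation, rose by 0.23 ± 0.060. It shares 4.1% of its exonic bases with SIAH2-AS1. In the library with strand counts 636 reads lay on its own strand against 567 counted with strand ignored. The paralogue EGLN2 was at 0.12 ± 0.10 and HIF1AN, which hydroxylates an asparagine of HIF, at -0.07 ± 0.057, neither past the threshold. EGLN2 shares 30.6% of its exonic bases with other genes, so its count is uncertain. Of the coactivators, CREBBP rose by 0.32 ± 0.042, and by 0.20 with GC and length offsets, while EP300 (0.08 ± 0.037, edgeR adjusted p = 0.096) did not pass.

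Among secreted signals, 1 of 4 tested rose, against 20.3% of all tested genes. ANGPTL4, an inhibitor of lipoprotein lipase, had 44, 44 and 45 counts in the IRAIN libraries and 16, 16 and 24 in the controls, a log2 fold change of 1.21 ± 0.24. For this gene 48.9% of reads were opposite to it in the library with strand counts. Erythropoietin (EPO) had 2 counts in the IRAIN libraries and 7 in the controls, too few to test. Of the transcription and chromatin targets, MXI1, a MYC antagonist, rose by 0.29 ± 0.065 and CITED2, which competes with HIF for its coactivators, fell by 0.18 ± 0.048. KDM4B, a histone demethylase, rose by 0.10 ± 0.042, but it stood at -0.03 with GC and length offsets and missed the threshold when IRAIN replicate 1 (0.08), control column 1 (0.07) or control column 2 (0.12) was left out, as it did by DESeq2 (adjusted p = 0.21) and with no filter on low counts (adjusted p = 0.079).

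Targets for survival and mitochondria rose in 3 of 7 cases and fell in 1. Over all tested genes 20.3% rose and 18.9% fell. BNIP3L, the mitophagy receptor that clears mitochondria from maturing red cells, stood at 107, 104 and 118 CPM in the IRAIN libraries and at 78.6, 76.9 and 73.5 CPM in the controls. Its groups lay apart, with a log2 fold change of 0.53 ± 0.045, unlike those of its paralogue BNIP3 (the difference between the 2 genes was not tested). DDIT4, an inhibitor of mTORC1, rose by 0.29 ± 0.038. It shares 41.2% of its exonic bases with DDIT4-AS1, and in the library with strand counts 7096 reads lay on its own strand against 3108 counted with strand ignored. HIGD1A, a respiratory chain factor, fell by 0.16 ± 0.047. It shares 34.1% of its exonic bases with other genes, so its count is uncertain. The third riser, NDRG1 (0.997 ± 0.25), lay outside the rule for named genes and was named after its value was seen.

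Of the matrix and pH targets, 2 of 7 tested rose and 2 fell, in pairs of related enzymes that went opposite ways. Over all tested genes 20.3% rose and 18.9% fell. For the collagen prolyl hydroxylases, P4HA1 rose by 0.42 ± 0.058 and P4HA2 fell by 0.16 ± 0.059. The P4HA2 call was lost without IRAIN replicate 1 (-0.11, adjusted p = 0.18), without control columns 1 (-0.16, adjusted p = 0.055) and 2 (-0.13, adjusted p = 0.12), and by DESeq2 (adjusted p = 0.15). For the lysyl hydroxylases, PLOD2 rose by 0.73 ± 0.11 and PLOD1 fell by 0.14 ± 0.038.

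Of the glucose genes, which HIF is known to induce together, 3 of 13 rose and 4 fell. Over all tested genes 20.3% rose and 18.9% fell, so a split between directions was not particular to the glucose genes. ALDOC, an aldolase, rose by 0.63 ± 0.087 and PFKFB3, which makes the allosteric activator of phosphofructokinase, by 0.35 ± 0.052. ALDOC shares 10.1% of its exonic bases with AC005726.4. In the library with strand counts 418 reads lay on its own strand against 308 counted with strand ignored, so its count is uncertain. HK2, the inducible hexokinase, stood at 72.4 ± 2.5 CPM in the IRAIN libraries and 110.0 ± 3.0 CPM in the controls (SD, n = 3 each), a log2 fold change of -0.60 ± 0.043. LDHA, lactate dehydrogenase A, stood at 448 ± 9.9 CPM in the IRAIN libraries and 559 ± 17 CPM in the controls, a log2 fold change of -0.32 ± 0.028. The glucose transporter SLC2A1 (0.07 ± 0.033) and the kinase PGK1 (-0.07 ± 0.030) did not pass the test. Outside the rule, and named after their values were seen, TPI1 fell by 0.14 ± 0.031, PFKFB4 fell by 0.16 ± 0.061 and PDK1 rose by 0.16 ± 0.054. The PDK1 call was lost without IRAIN replicate 3 (0.10) and without control columns 2 (0.14) and 3 (0.12), by DESeq2 (adjusted p = 0.14) and with GC and length offsets (adjusted p = 0.086). The PFKFB4 call was lost without IRAIN replicate 3 (-0.09) and without control column 1 (-0.16), 2 (-0.16) or 3 (-0.15), by DESeq2 (adjusted p = 0.19) and with no filter on low counts (adjusted p = 0.053). ALDOA shares 53.5% of its exonic bases with other genes, and its level (3.05 to 3.26 CPM in the IRAIN libraries, 2.73 to 4.57 CPM in the controls) is uncertain for that reason.

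Of 3 iron genes, TF, which encodes transferrin, had 46, 81 and 75 counts in the IRAIN libraries and 10, 11 and 11 in the controls, or 5.35 ± 1.2 CPM in the IRAIN libraries and 0.876 ± 0.040 CPM in the controls (SD, n = 3 each). Its log2 fold change was 2.61 ± 0.25, the largest of the 57 tested hypoxia genes. The transferrin receptor TFRC fell by 0.35 ± 0.026, at 725 ± 8.0 CPM in the IRAIN libraries and 925 ± 23 CPM in the controls. TFRC is also 1 of the 10 markers of K562 identity summed above. HMOX1 had too few reads to test.

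**Figure D5:**
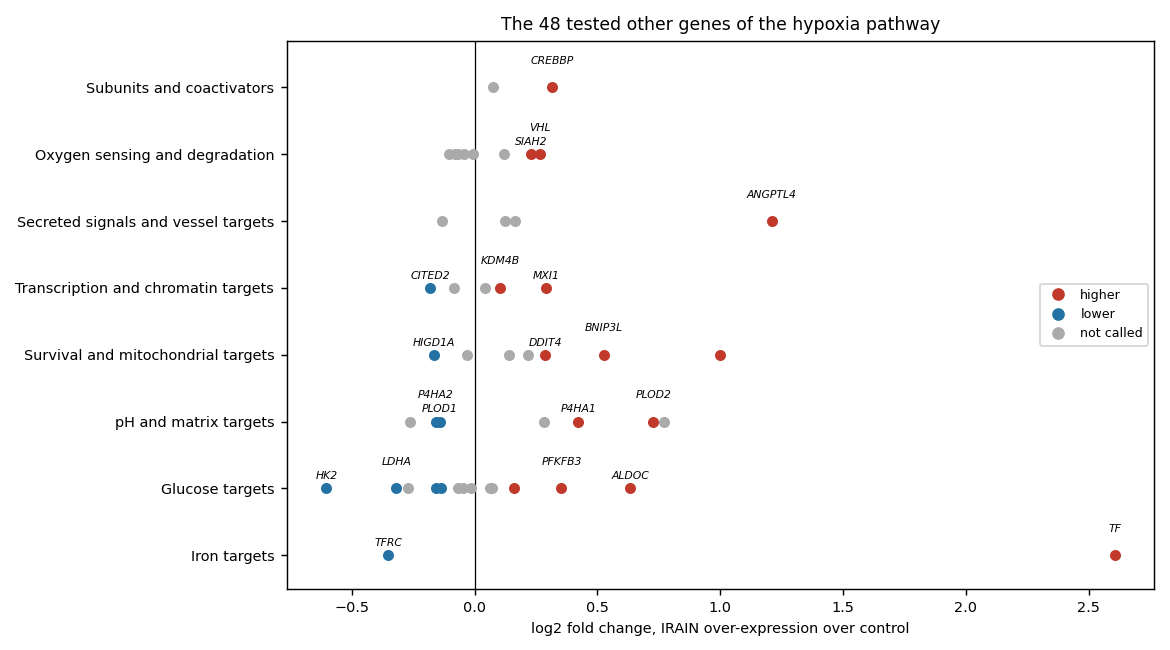
Log2 fold change (x axis, over-expression over control) of the 48 tested other genes of the pathway by role, red for called higher, blue for called lower and grey for not called, with the genes named by rule. All roles except subunits and coactivators have members on both sides of 0, and TF lies farthest out at 2.61.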

How the data were processed

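RNA of 6 K562 samples was measured, 3 per group. The authors deposited raw, whole-number counts per Ensembl gene with strand ignored. STAR and the build hg38 (GRCh38) are named per the submitters' processing notes, without a version or annotation release. Identifiers were matched to GENCODE 29 for symbols and coordinates (58320 of 58440). The deposited control columns are named vector and were matched to the wild-type group only as a group. A second deposited table has strand counts of 1 unnamed library; the column with most counts was taken as the gene's own strand.

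Counts were tested with edgeR 4.0.16 (TMM scaling, filterByExpr, quasi-likelihood F test, group as the only term, Benjamini-Hochberg adjustment over 18380 genes, threshold 0.05), in R 4.3.3. The script was tested on simulated data. CPM use TMM-scaled library sizes; intervals are 95%, and the depth of 11558983 to 13303139 counts limits low genes. Alternatives were RLE scaling, no filter beyond 1 count, DESeq2 1.42.0, limma-voom 3.58.1, a test against a 1.5-fold change, GC and length offsets (loess span 0.5), leaving out each library and, chosen after seeing the data, a replicate block by column number.

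The genes and lists were chosen with earlier results of these data known. Of the other pathway genes, up to 2 risen and 2 fallen per role, smallest p first among those called, were named by rule. Uncalled genes given as examples, and the genes marked in the text, were chosen after their values were seen.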

Additional observations from a re-analysis of the deposited data

How the results depend on the processing

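The called genes VEGFA, BHLHE40, EPAS1 and ARNT kept their direction in all 52 alternative values and passed the threshold in 48. The other 4 were ARNT by DESeq2 and BHLHE40, EPAS1 and ARNT in edgeR's test against a 1.5-fold change. That test has the same log2 fold changes as edgeR's test without a fold limit, so direction could not change in it. That test called 1 of the 9 hypoxia genes (1 higher), 2 of the other pathway genes (2 higher, 0 lower) and 689 of all tested genes (447 higher, 242 lower), since it asks for a larger change; VEGFA, the 1 hypoxia gene it called, stood at 0.57 with GC and length offsets, under the 0.58 of that test. DESeq2 called 2465 of all tested genes higher, against 3734 by edgeR; the cause was not tested. Of the genes not called, EGLN3 ranged from -0.0252 (without IRAIN replicate 3; -0.0238 without control column 2) to 0.0834 in log2 fold change with 1 library left out, and BNIP3 from -0.11 to 0.0164 (without control column 2). KDM4B stood at -0.0313 with GC and length offsets; the cause was not tested. For the 20 named other pathway genes, 231 of 260 alternative values kept direction and side of the threshold, 28 missed the threshold and 1 reversed. These genes were named because edgeR called them, and the alternatives use the same counts, so the tally is no independent support for the calls. No scaling moved the median over all tested genes by 0.01 or more. An edgeR fit with the number in the column names as a replicate block, chosen after seeing the data, called 4 of the 9 hypoxia genes higher and 0 lower, 14 of the other pathway genes higher and 9 lower, and 7077 of all tested genes, against 7217 without it. The numbers were not shown to pair the libraries: deviations from the group means of same-numbered libraries correlated at -0.042 to -0.006 across genes, and none of the 3 IRAIN libraries correlated best with the control of its own number. Of the named genes KDM4B missed the threshold there (adjusted p = 0.052). Depth limits CA9 and ADM most.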
